A study of Mus musculus with 5 samples.

Results

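Kinesins are motor proteins that walk along microtubules or take them apart. The family studied here comprised every gene in the deposited normalized table whose symbol is Kif followed by a number and, where present, a letter, which gave 35 of 27526 genes. RNA was profiled from cells labelled as Kit-positive leukaemia stem cells of a mouse model driven by AML1-ETO9a, a shortened form of the RUNX1-RUNX1T1 fusion of human acute myeloid leukaemia. The libraries were 3 labelled Plcg1 -/- by conditional deletion (deleted 2, 4 and 6) and 2 labelled Plcg1 +/+ (wild-type 1 and 3), and all 5 carried AML1-ETO9a. Plcg1 encodes phospholipase C-γ1, which splits a membrane lipid into second messengers. The Cre driver, the age of the mice, the time after deletion and whether a library came from 1 mouse or from pooled mice were not named in the labels. P-values therefore describe the spread among these 5 libraries alone, and that spread may be technical.

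In dividing cells one set of kinesins builds the spindle, moves chromosomes and separates the daughter cells, and its genes are switched on late in the cell cycle. Another set carries vesicles, lysosomes, mitochondria and proteins towards the ends of microtubules in dividing and resting cells alike. Others serve the cilium and the Hedgehog pathway. The measured members were accordingly taken in order of these roles: 11 mitotic kinesins and 24 others.

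The libraries held 37306507 to 57133771 gene counts. Plcg1 itself stood at 53.0, 26.9 and 37.1 CPM (its count per 1000000 counts of the library, whose total was scaled by TMM) in deleted 2, 4 and 6, against 22.1 and 34.0 CPM in wild-type 1 and 3. The groups overlapped, and totals per gene cannot check a deletion of some exons, so group names are those of the labels. Deleted 6 stood apart: across 16120 tested genes its Spearman correlation with the other libraries was 0.870 to 0.922, against 0.9497 to 0.988 among the other 4. Kit, the receptor for which the cells are labelled positive, stood at 672, 304 and 3.08 CPM in deleted 2, 4 and 6, against 26.8 and 32.1 CPM in wild-type 1 and 3. The 12 monocyte and macrophage markers summed to 17608, 32341 and 118625 CPM in deleted 2, 4 and 6, against 16150 and 16213 CPM in wild-type 1 and 3, with none at 0 in any library. The 8 mast cell markers summed to 10358, 4698 and 32.3 CPM in deleted 2, 4 and 6, against 40.5 and 82.2 CPM in wild-type 1 and 3. The 9 promyelocyte and neutrophil markers summed to 14133, 15842 and 113 CPM in deleted 2, 4 and 6, against 18272 and 20100 CPM in wild-type 1 and 3. The 5 stem and progenitor markers summed to 1123, 561 and 6.85 CPM in deleted 2, 4 and 6, against 299 and 316 CPM in wild-type 1 and 3. That list split: Kit, Gata2 and Cd34 were highest in deleted 2 and 4, while Hoxa9, at 0.841, 1.66 and 0.0678 CPM, and Meis1, at 8.65, 6.80 and 0.317 CPM in deleted 2, 4 and 6, stood under wild-type 1 and 3, at 145 and 128 CPM for Hoxa9 and 79.1 and 84.5 CPM for Meis1. In deleted 6 all 5 of these markers were at their lowest, so its levels of Kit and the other 4 go against its label as Kit-positive stem cells. Deleted 2 and 4 also differed from wild-type, with Hoxa9 and Meis1 far below it and the summed mast cell markers far above it. None of the genes of these 3 lists was at 0 in any library, and the part of these markers in the kinesin levels was not tested. By the lane number in the file labels, deleted 6 was also the only library of sequencing lane 5, and wild-type 1 the only library of lane 3. Library and lane therefore cannot be told apart for either. Fold changes of the kinesins are given or summarised with and without deleted 6, and the fits without it still span lanes 3 and 4.

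Promoters of the mitotic kinesins are shown first, because a short element near the start site was found in more of them than of the other members. The cell cycle genes homology region (CHR), TTTGAA or TTTAAA, is known as the site where the DREAM and MuvB complexes act on genes of late cell cycle, often beside a CCAAT box. Promoter sequences from RefSeq (GRCm38.p6) were matched by symbol for 29 of 35 members, in 33 windows of 100 bases before to 30 bases after the annotated start. In the lines that follow, each 5′ to 3′ on the gene's own strand, capitals mark the CHR letters (TTCAAA where read on the other strand) and the CCAAT letters (ATTGG on the other strand). The windows are chr19:37376282-37376411 on the plus strand for Kif11, chr9:122950981-122951110 on the plus strand for Kif15, chr7:127042391-127042520 on the minus strand for Kif22, chr11:102925095-102925224 on the minus strand for Kif18b, chr19:34922258-34922387 on the plus strand for Kif20b, chr9:61946770-61946899 on the minus strand for Kif23 and chr2:153291316-153291445 on the plus strand for Kif3b. Kif3b, a transport motor, is given for contrast and holds a CCAAT box alone. Of the 23 windows of members outside the mitotic set, 3 do hold a CHR.
Kif11: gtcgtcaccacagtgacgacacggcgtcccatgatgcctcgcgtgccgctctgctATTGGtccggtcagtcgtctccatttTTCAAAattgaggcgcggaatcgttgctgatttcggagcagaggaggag
Kif15: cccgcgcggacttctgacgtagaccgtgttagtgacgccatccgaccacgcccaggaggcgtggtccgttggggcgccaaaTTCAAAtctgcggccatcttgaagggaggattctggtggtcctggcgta
Kif22: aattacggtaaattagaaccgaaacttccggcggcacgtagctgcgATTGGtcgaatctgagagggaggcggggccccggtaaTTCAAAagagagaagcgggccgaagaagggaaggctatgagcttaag
Kif18b: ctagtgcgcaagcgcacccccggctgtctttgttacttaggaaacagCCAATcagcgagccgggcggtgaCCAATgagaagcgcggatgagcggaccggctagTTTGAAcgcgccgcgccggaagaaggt
Kif20b: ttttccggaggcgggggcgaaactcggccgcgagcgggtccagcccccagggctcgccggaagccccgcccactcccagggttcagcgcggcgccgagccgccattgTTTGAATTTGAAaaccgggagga
Kif23: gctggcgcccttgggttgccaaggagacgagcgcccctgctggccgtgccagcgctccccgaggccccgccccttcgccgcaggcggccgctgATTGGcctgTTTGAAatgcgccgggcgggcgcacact
Kif3b: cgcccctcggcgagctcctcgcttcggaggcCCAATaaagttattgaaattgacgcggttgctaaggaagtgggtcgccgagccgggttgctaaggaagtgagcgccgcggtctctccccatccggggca

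A CHR was found, on either strand, in 8 of 10 windows of mitotic kinesins (80.0%), in 3 of 23 windows of the other members (13.0%) and in 11.7% of all 32851 windows of the table. The 8 genes were Kif4, Kif11, Kif14, Kif15, Kif18b, Kif20b, Kif22 and Kif23. With position 1 at the annotated start and no position 0, the first base of the element lay between position -42 in Kif14 and 20 in Kif4, and Kif20b held 2 copies end to end, at 8 and 14. The CCAAT letters occurred in 6 of those 10 windows, in 21.7% of the windows of the other members and in 21.7% of all windows. In Kif11 and Kif22 the CCAAT box came first, at -45 and -54, and the CHR followed, at -19 and -17. That order was not particular to mitotic members: Kif26b had a CCAAT box at -73 and a CHR at -9. The 3 windows of other members with a CHR were those of Kif26b, Kif1a and Kif27. Kif18a and Kif2c had neither element in the window. The starts that RefSeq gives for Kif2c, Kif14 and Kif4 lie 3867, 1505 and 328 bases inside the genes as annotated by GENCODE, so these windows do not cover the GENCODE starts. Outside the mitotic set the same limit applies to Kif17, Kif27 and the Kif1a window with a CHR, at 11816, 4175 and 19471 bases inside. Kif20a, the remaining mitotic member, had no window. The longer E2F letters TTTCCCGC or TTTGGCGC were found in 2 of 10 mitotic windows, those of Kif15 and Kif18a, in 0 of 23 of the others and in 0.749% of all windows. The E-box CACGTG was in none of the 33 windows and in 3.98% of all. A match describes letters only. No 2 matches overlapped in these windows, and in Kif15 the E2F letters, at -27, ended just before the CHR, at -19.

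All 11 mitotic kinesins had their lowest level in deleted 6, from 15.4-fold below the next lowest library (Kif23) to 58.5-fold (Kif18b). Over all tested genes 37.9% were lowest in deleted 6, and 8.09% were lowest there by over 4-fold. In deleted 2 and 4 the mitotic kinesins stood within or below the wild-type range. The set was chosen with earlier results of these data known. It leaves out the depolymerases Kif2a and Kif24, which in deleted 6 stood 1.17- and 4.01-fold below the next lowest library. Kif11, the kinesin-5 that pushes spindle poles apart, stood at 155, 149.7 and 3.19 CPM in deleted 2, 4 and 6, against 199 and 236 CPM in wild-type 1 and 3. The groups did not overlap, and deleted 2 and 4 lay close together between deleted 6 and wild-type. Kif15, a kinesin-12 that backs up Kif11 on the spindle, stood at 53.9, 44.8 and 0.814 CPM in deleted 2, 4 and 6, against 67.9 and 90.2 CPM in wild-type 1 and 3. It had the same order of libraries, with 36 counts left in deleted 6.

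The chromokinesins bind chromosome arms. Kif22 stood at 102.5, 82.9 and 3.48 CPM in deleted 2, 4 and 6, against 114.6 and 129 CPM in wild-type 1 and 3, without overlap. Kif4, which also shapes the midzone between the daughter cells, stood at 64.8, 58.8 and 1.06 CPM in deleted 2, 4 and 6, against 62.0 and 78.1 CPM in wild-type 1 and 3. Here deleted 2 lay above wild-type 1, so the groups overlapped. The exons of Kif4 overlap those of Pdzd11 on the opposite strand, and neither library kit marks strand.

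Kinesins that set the length of spindle microtubules followed the same order. Kif18a, a kinesin-8 that dampens chromosome movement at metaphase, stood at 25.1, 22.5 and 1.20 CPM in deleted 2, 4 and 6, against 34.9 and 40.4 CPM in wild-type 1 and 3. Its relative Kif18b, which works on astral microtubules, stood at 58.9, 58.2 and 0.995 CPM in deleted 2, 4 and 6, against 79.96 and 82.2 CPM in wild-type 1 and 3. Kif2c, the depolymerase that corrects wrong attachments, stood at 78.3, 62.3 and 1.20 CPM in deleted 2, 4 and 6, against 80.4 and 116 CPM in wild-type 1 and 3. In none of these genes did the groups overlap, though deleted 2 came close to wild-type 1 in Kif2c. The annotation (GENCODE M21, GRCm38) places Kif18a at chr2:109280738-109341747 on the plus strand, where it shares exon sequence with Mettl15 on the opposite strand.

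The 4 cytokinesis motors stood 15.4- to 19.4-fold lower in deleted 6 than in the next lowest library, against 18.8- to 58.5-fold for the other 7 mitotic members. Kif20a, which brings the chromosomal passenger complex to the midzone, stood at 128, 107 and 5.52 CPM in deleted 2, 4 and 6, against 134.6 and 154 CPM in wild-type 1 and 3. Kif23, the motor of centralspindlin, stood at 66.7, 74.7 and 4.34 CPM in deleted 2, 4 and 6, against 77.0 and 88.7 CPM in wild-type 1 and 3. Neither gene's groups overlapped, and Kif23 was the mitotic member with the smallest gap to deleted 6. Kif20b, which acts in late cytokinesis, stood at 82.3, 81.3 and 4.55 CPM in deleted 2, 4 and 6, against 78.6 and 91.1 CPM in wild-type 1 and 3, and its groups overlapped. Kif14, a kinesin-3 that recruits citron kinase to the midbody, was the lowest of the mitotic members, at 8.11, 6.51 and 0.339 CPM in deleted 2, 4 and 6, against 12.3 and 14.1 CPM in wild-type 1 and 3. Only 15 Kif14 counts were left in deleted 6. Kif20a shares exon sequence with Cdc23 on the opposite strand.

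**Figure D1:**
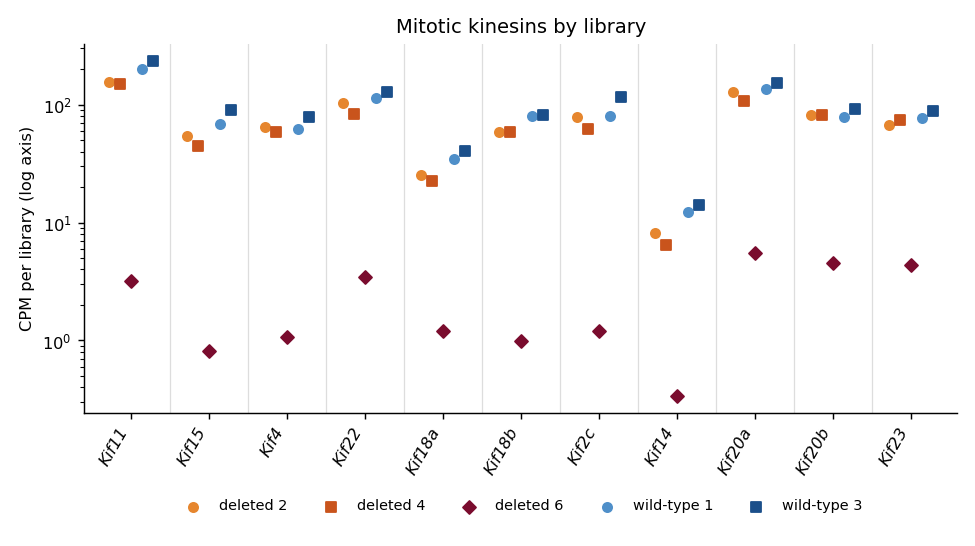
Level of each mitotic kinesin in CPM on a log axis, 1 point per library, with deleted 2, 4 and 6 left of wild-type 1 and 3. Deleted 6 sits between 0.339 and 5.52 CPM, and the other 4 libraries between 6.51 and 236 CPM.

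With all 5 libraries edgeR's quasi-likelihood test called 0 of the 11 mitotic kinesins. Log2 fold changes, deleted minus wild-type, ran from -1.40 ± 1.121 (SE) in Kif14 to -0.60 ± 1.08 in Kif20b, with adjusted p from 0.553 to 0.782. The unadjusted p was under 0.05 in 0 of 11, and 0 were called by DESeq2 or by limma-voom. In 9 of 11 the highest deleted library was lower than the lowest wild-type one, as in 23.7% of all tested genes. Their median log2 fold change was -1.04, against 0.01 over all tested genes.

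Without deleted 6, the mitotic kinesins had small negative fold changes in all 11 genes, with a median of -0.46 against -0.01 over all tested genes. edgeR called 1 of the 11 lower, Kif18a, at -0.65 ± 0.16 (adjusted p = 0.0470), where 5.07% of all tested genes were called lower in that fit. Kif14, at -0.84 ± 0.22, Kif18b, at -0.46 ± 0.12, Kif15, at -0.67 ± 0.18, and Kif11, at -0.50 ± 0.14, came next (edgeR adjusted p = 0.0564, 0.0620, 0.0633 and 0.0679). DESeq2 on the same 4 libraries called these 5 lower, where it called 7.66% of all genes lower, and limma-voom called Kif18a alone, where it called 4.98% of all genes lower and 7.3% higher. Deleted 2 and 4 both lay below wild-type 1 and 3 in 9 of the 11 (29.4% of all tested genes). Kif20b, at -0.04 ± 0.14, and Kif4, at -0.17 ± 0.16, were the 2 that overlapped.

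Genes that work with these motors, and general markers of dividing cells, were also lowest in deleted 6. Of 26 mitotic partner genes all 26 were lowest in deleted 6, where 37.9% of all tested genes were, and the list summed to 3118, 2875 and 291 CPM in deleted 2, 4 and 6, against 3784 and 4129 CPM in wild-type 1 and 3. The 4 with the smallest p across all 5 libraries were Gtse1, a spindle protein, Incenp, a passenger complex subunit, Bub1b, a spindle checkpoint kinase, and Spag5, a spindle protein. Their log2 fold changes were -0.75 ± 0.47, -0.87 ± 0.66, -1.01 ± 0.79 and -1.35 ± 1.08 with all libraries, and -0.39 ± 0.16, -0.42 ± 0.14, -0.52 ± 0.14 and -0.79 ± 0.16 without deleted 6. Without deleted 6 edgeR called 6 of the 26 lower and 0 higher (5.07% and 7.89% of all genes), and with all 5 libraries edgeR, DESeq2 and limma-voom each called 0, with 0 at an unadjusted p under 0.05. Racgap1, the partner of Kif23 in centralspindlin, stood at 130, 126 and 10.2 CPM in deleted 2, 4 and 6, against 161 and 184 CPM in wild-type 1 and 3. Prc1, the microtubule bundler that binds Kif4, stood at 154, 156 and 5.99 CPM in deleted 2, 4 and 6, against 157 and 167 CPM in wild-type 1 and 3. The 10 proliferation markers summed to 2218, 2023 and 145 CPM in deleted 2, 4 and 6, against 3052 and 3406 CPM in wild-type 1 and 3. Mki67, Cdk1 and Ccnb1 are in both lists, so the lists are not independent. In all 10 the deleted libraries lay under the wild-type ones (23.7% of all genes) and none was at 0, and their part in the kinesin levels was not tested. In these bulk libraries fewer dividing cells and less RNA per cell cannot be told apart.

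Regulators known to act on promoters of the cell cycle were mostly at their lowest in deleted 6 as well. Of 16 listed regulators 15 were lowest there and 10 had all deleted libraries under the wild-type ones (37.9% and 23.7% of all genes). DESeq2 and limma-voom called 2 lower each (3.05% and 5.87% of all genes), and edgeR 0 with all libraries and 2 lower without deleted 6 (5.07%). E2f2, an activator of S phase genes, had the smallest p, at 18.6, 23.9 and 12.0 CPM in deleted 2, 4 and 6, against 56.0 and 70.7 CPM in wild-type 1 and 3. Its log2 fold change was -1.80 ± 0.33 across all 5 libraries (edgeR adjusted p = 0.157). It was -1.57 ± 0.20 when deleted 6 was left out (edgeR adjusted p = 0.00475). E2f1, Rbl1 and E2f4 followed, at -0.48 ± 0.16, -0.75 ± 0.33 and -0.56 ± 0.33 with all libraries, and -0.43 ± 0.13, -0.49 ± 0.13 and -0.31 ± 0.13 without deleted 6. Mybl2, which joins MuvB to switch on late cell cycle genes, stood at 66.4, 53.5 and 0.724 CPM in deleted 2, 4 and 6, against 89.4 and 101 CPM in wild-type 1 and 3. Without deleted 6 its log2 fold change was -0.66 ± 0.16 (edgeR adjusted p = 0.0424). Foxm1, its partner there, stood at 49.0, 50.7 and 1.40 CPM in deleted 2, 4 and 6, against 66.6 and 81.4 CPM in wild-type 1 and 3.

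Kinesin-1, the conventional cargo motor, kept a steady main chain while its minor chains were high in deleted 6. Kif5b, the heavy chain of most tissues, stood at 235, 237 and 232 CPM in deleted 2, 4 and 6, against 208 and 218 CPM in wild-type 1 and 3. It was the most even member of the family, with a log2 fold change of 0.14 ± 0.17 (edgeR adjusted p = 0.675). All deleted libraries exceeded wild-type by this scaling, but deleted 6 was the lowest of the 5 when scaled to its total count. Kif5a, a heavy chain best known from neurons, stood at 3.19, 2.47 and 32.4 CPM in deleted 2, 4 and 6, against 2.94 and 2.67 CPM in wild-type 1 and 3. Deleted 6 was 10.1-fold above the next library and the other 4 overlapped. Its log2 fold change was 2.17 ± 1.31 across all 5 libraries and 0.03 ± 0.31 without deleted 6 (edgeR adjusted p = 0.463 and 0.968). Kif5c, also best known from neurons, stood at 0.823, 3.04 and 12.0 CPM in deleted 2, 4 and 6, against 0.434 and 1.93 CPM in wild-type 1 and 3, and the groups overlapped. Its log2 fold change was 2.15 ± 1.32 with all libraries and 0.70 ± 0.82 without deleted 6. Per length of exon, Kif5a made up 1.52%, 1.16% and 13.1% of the summed level of the 3 chains in deleted 2, 4 and 6, against 1.59% and 1.36% in wild-type 1 and 3.

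The light chains of kinesin-1, which bind its cargo, were not members of the family by symbol. Klc1 stood at 68.4, 77.6 and 124 CPM in deleted 2, 4 and 6, against 61.6 and 57.7 CPM in wild-type 1 and 3. Klc2 stood at 7.11, 5.44 and 7.37 CPM in deleted 2, 4 and 6, against 4.82 and 3.28 CPM in wild-type 1 and 3. Klc4 stood at 54.2, 65.2 and 175 CPM in deleted 2, 4 and 6, against 45.3 and 49.7 CPM in wild-type 1 and 3. These 3 were highest in deleted 6 (36.2% of all genes), with every deleted library above wild-type (22.4% of all genes). Klc3 differed, with 2.98, 1.79 and 0.430 CPM in deleted 2, 4 and 6, against 2.31 and 2.94 CPM in wild-type 1 and 3, lowest in deleted 6 and with overlap. Log2 fold changes of Klc1, Klc2, Klc3 and Klc4 were 0.59 ± 0.31, 0.71 ± 0.35, -0.60 ± 0.80 and 1.05 ± 0.57 with all libraries, and 0.30 ± 0.14, 0.65 ± 0.31, -0.13 ± 0.38 and 0.34 ± 0.15 without deleted 6. Of the 11 tested genes of the list of other kinesins, light chains and binding proteins, edgeR called 0 with all 5 libraries and 0 without deleted 6. DESeq2 and limma-voom called 0 each. Before adjustment 1 gene had p under 0.05, and it was higher: Kif1bp, a protein that holds several kinesins inactive, at 62.0, 50.2 and 80.2 CPM in deleted 2, 4 and 6, against 42.1 and 38.9 CPM in wild-type 1 and 3.

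All 3 motor subunits of heterotrimeric kinesin-2, which joins Kif3a with Kif3b or Kif3c, stood above wild-type in all deleted libraries. Kif3a stood at 26.2, 39.8 and 62.3 CPM in deleted 2, 4 and 6, against 21.4 and 19.4 CPM in wild-type 1 and 3. Kif3b stood at 36.1, 46.8 and 84.3 CPM in deleted 2, 4 and 6, against 26.3 and 29.1 CPM in wild-type 1 and 3. Kif3c stood at 9.32, 11.2 and 24.6 CPM in deleted 2, 4 and 6, against 4.36 and 7.91 CPM in wild-type 1 and 3. In all 3 genes deleted 2 came nearest to wild-type, deleted 4 next and deleted 6 was highest, without overlap of the groups. Of all tested genes, 22.4% had every deleted library above wild-type, and 36.2% were highest in deleted 6. Kifap3, the adaptor of this motor, had the same order, at 18.3, 19.5 and 40.4 CPM in deleted 2, 4 and 6, against 14.9 and 16.4 CPM in wild-type 1 and 3.

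None of these subunits passed edgeR's test with all 5 libraries. Kif3a had a log2 fold change of 1.07 ± 0.40, Kif3b 1.011 ± 0.41 and Kif3c 1.29 ± 0.56 (edgeR adjusted p = 0.323, 0.342 and 0.360). Without deleted 6 they were 0.71 ± 0.23, 0.59 ± 0.18 and 0.75 ± 0.32 (adjusted p = 0.0944, 0.0797 and 0.189), and DESeq2 on those 4 libraries called Kif3a and Kif3b higher, where it called 10.9% of all genes higher. The ratio of Kif3b to Kif3a per length of exon was 0.875, 0.748 and 0.862 in deleted 2, 4 and 6, against 0.782 and 0.954 in wild-type 1 and 3. The same ratio of Kif3c to Kif3a was 0.172, 0.136 and 0.191 in deleted 2, 4 and 6, against 0.0989 and 0.198 in wild-type 1 and 3. Both ratios overlapped between the groups. Kif3c shares exon sequence with 2 antisense genes.

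Kif17, the homodimeric kinesin-2 of cilia and dendrites, went the other way from the Kif3 subunits. Its level was 3.59, 0.396 and 0.204 CPM in deleted 2, 4 and 6, against 4.75 and 6.03 CPM in wild-type 1 and 3, from 205, 21 and 9 counts against 197 and 335. Deleted 2 lay near wild-type, and deleted 4 and 6 far below it. The log2 fold change was -1.94 ± 1.22 with all libraries and -1.42 ± 0.83 without deleted 6 (edgeR adjusted p = 0.477 and 0.327), and limma-voom with quality weights called it lower (-3.13 ± 0.69, adjusted p = 0.0368). Sh2d5 overlaps its exons on the same strand, so its reads are uncertain.

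The kinesin-3 carriers of vesicles and endosomes split among themselves. Kif1b, which carries mitochondria, lysosomes and synaptic vesicle precursors, stood at 81.5, 83.5 and 176 CPM in deleted 2, 4 and 6, against 110 and 136 CPM in wild-type 1 and 3. Deleted 6 was the highest and deleted 2 and 4 the lowest of the 5. The log2 fold change was -0.12 ± 0.41 with all libraries and -0.57 ± 0.15 without deleted 6 (edgeR adjusted p = 0.890 and 0.0537). DESeq2 on those 4 libraries called it lower. Kif16b, which moves early endosomes, stood at 55.0, 55.2 and 78.4 CPM in deleted 2, 4 and 6, against 38.4 and 49.7 CPM in wild-type 1 and 3. Kif13b, a carrier of membrane cargo, stood at 22.2, 25.9 and 43.9 CPM in deleted 2, 4 and 6, against 12.8 and 21.7 CPM in wild-type 1 and 3. Kif1c, which carries integrin vesicles and serves podosomes of macrophages, stood at 4.77, 4.98 and 13.6 CPM in deleted 2, 4 and 6, against 4.10 and 2.65 CPM in wild-type 1 and 3. In these last 3 genes every deleted library lay above wild-type (22.4% of all genes) and deleted 6 was highest (36.2% of all genes). In Kif13b deleted 2 lay just above wild-type 3.

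Log2 fold changes were 0.51 ± 0.25 in Kif16b, 0.83 ± 0.42 in Kif13b and 1.21 ± 0.62 in Kif1c (edgeR adjusted p = 0.398, 0.400 and 0.407). Without deleted 6 they were 0.34 ± 0.17, 0.49 ± 0.27 and 0.55 ± 0.32, and none was called by any of the 3 tools. Kif13a, which brings cargo to recycling endosomes and to melanosomes, stood at 55.1, 53.9 and 50.4 CPM in deleted 2, 4 and 6, against 42.8 and 62.2 CPM in wild-type 1 and 3, so the deleted libraries lay within the wild-type range. Kif1a, best known as a neuronal carrier, stood at 0.981, 1.19 and 0.520 CPM in deleted 2, 4 and 6, against 1.83 and 2.20 CPM in wild-type 1 and 3, without overlap and lowest in deleted 6. Its log2 fold change was -1.16 ± 0.48 with all libraries and -0.88 ± 0.37 without deleted 6 (edgeR adjusted p = 0.349 and 0.172), and that of Kif13a 0.02 ± 0.22 and 0.07 ± 0.20.

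**Figure D2:**
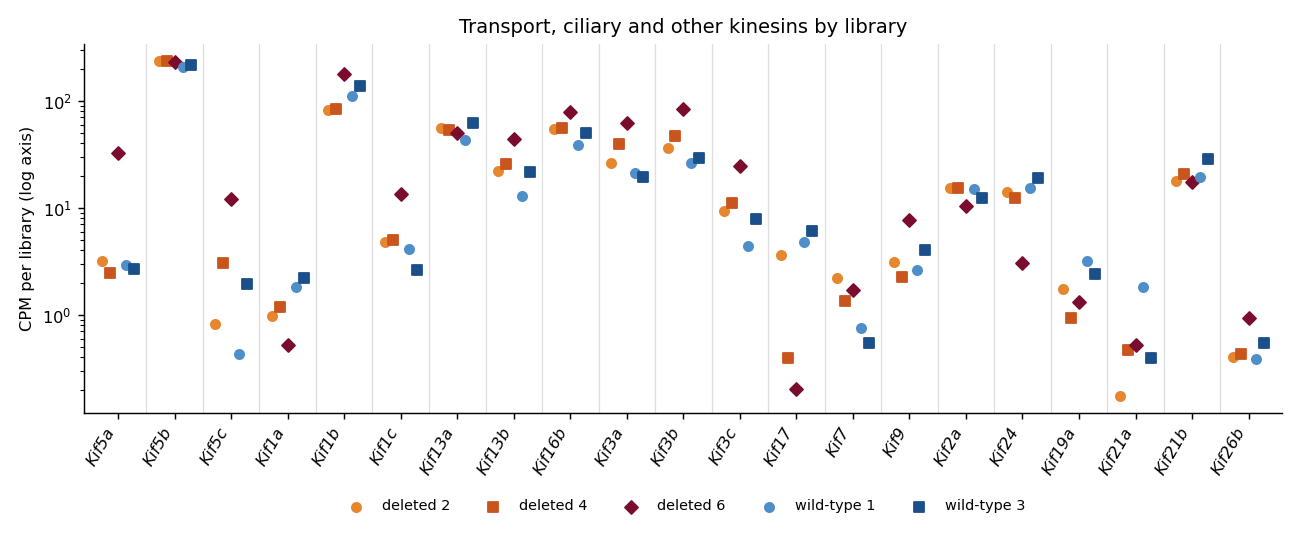
Level of the 21 other tested kinesins in CPM on a log axis, 1 point per library, ordered as kinesin-1, kinesin-3, kinesin-2, then ciliary, depolymerising and remaining members, with deleted 2, 4 and 6 left of wild-type 1 and 3. Deleted 6 is the highest library in 11 genes, among them Kif5a and Kif3a, and the lowest in 5, among them Kif17 and Kif24. Of all tested genes, 36.2% were highest and 37.9% lowest in deleted 6.

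Members of the cilium and Hedgehog role list were expressed at low levels. Kif7, the ciliary-tip regulator of Hedgehog signalling, stood at 2.21, 1.36 and 1.70 CPM in deleted 2, 4 and 6, against 0.747 and 0.540 CPM in wild-type 1 and 3, without overlap. It was the member with the smallest p, at a log2 fold change of 1.45 ± 0.45 with all libraries and 1.49 ± 0.45 without deleted 6 (edgeR adjusted p = 0.282 and 0.0805). DESeq2 with all 5 libraries called it higher (adjusted p = 0.0242), where that test called 5.75% of all genes higher. Exons of Ticrr and of an antisense gene overlap Kif7 on the opposite strand, which makes its counts uncertain. Kif9, of motile cilia, stood at 3.10, 2.25 and 7.78 CPM in deleted 2, 4 and 6, against 2.65 and 4.03 CPM in wild-type 1 and 3, with overlap. Among 16 tested genes of ciliary transport and Hedgehog signalling edgeR called 0 with all 5 libraries, and before adjustment p was under 0.05 in 1 higher and 3 lower genes (9.44% and 5.42% of all genes). The calls were 1 higher and 1 lower by DESeq2 (5.75% and 3.05%), and 1 higher and 4 lower by limma-voom (7.63% and 5.87%). Without deleted 6 edgeR called Smo higher (adjusted p = 0.00134) and Ift80 and Ift57 lower (7.89% and 5.07% of all genes). The 3 lower before adjustment were Ift80, Ift57 and Ift27, subunits of the trains that kinesin-2 moves, at -1.24 ± 0.35, -1.11 ± 0.33 and -0.61 ± 0.20 with all libraries, and -0.98 ± 0.18, -0.85 ± 0.16 and -0.65 ± 0.18 without deleted 6. Smo, the signal transducer of the pathway, stood at 10.4, 7.83 and 0.452 CPM in deleted 2, 4 and 6, against 0.410 and 0.252 CPM in wild-type 1 and 3.

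Kif24, a depolymerase that restrains cilium growth at the centriole, stood at 14.2, 12.3 and 3.08 CPM in deleted 2, 4 and 6, against 15.5 and 18.9 CPM in wild-type 1 and 3. It was the only member outside the mitotic set that deleted 6 held at over 4-fold below every other library, by 4.01-fold. Its log2 fold change was -0.80 ± 0.65 with all libraries and -0.36 ± 0.20 without deleted 6 (edgeR adjusted p = 0.557 and 0.296). Kif2a, a depolymerase of spindle poles and neurites, stood at 15.3, 15.5 and 10.4 CPM in deleted 2, 4 and 6, against 15.0 and 12.2 CPM in wild-type 1 and 3, so unlike Kif2c it kept most of its level in deleted 6. Dimt1 overlaps its exons on the opposite strand. Kif19a, a kinesin-8 that limits the length of cilia, stood at 1.73, 0.944 and 1.31 CPM in deleted 2, 4 and 6, against 3.16 and 2.41 CPM in wild-type 1 and 3. Its groups did not overlap, with a log2 fold change of -1.06 ± 0.43 and, without deleted 6, -1.04 ± 0.42 (edgeR adjusted p = 0.340 and 0.162). For this gene limma-voom with quality weights called it lower (-1.34 ± 0.32, adjusted p = 0.0456), where that test called 5.87% of all genes lower.

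The remaining members varied little or were near the floor. Kif21b, which pauses microtubule growth in immune cells and neurons, stood at 17.7, 20.7 and 17.5 CPM in deleted 2, 4 and 6, against 19.5 and 28.4 CPM in wild-type 1 and 3, with overlap. Its relative Kif21a had 10, 25 and 23 counts in deleted 2, 4 and 6, against 76 and 22 counts in wild-type 1 and 3, so wild-type 1 alone was high. Kif26b, an atypical member that signals without moving, had 23, 23 and 41 counts in deleted 2, 4 and 6, against 16 and 30 counts in wild-type 1 and 3. None of these 3 was called by edgeR, DESeq2 or limma-voom, with or without deleted 6. Kif5b, Kif22 and Kif26b share exon sequence with antisense genes. The 3 members that did not pass the filter on low counts had at most 4 counts in any library. They were Kif12, with 0, 2 and 0 counts in deleted 2, 4 and 6 against 0 and 2 in wild-type, Kif27, with 3, 0 and 4 against 1 and 1, and Kif26a, with 1, 1 and 0 against 0 and 0. A count of 3 corresponds to 0.0525 to 0.0804 CPM of the unscaled library, counting error only.

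Over the whole family edgeR called 0 of 32 tested members in either direction with all 5 libraries, as it did 0% of all genes higher and 0% lower. Before adjustment 2 members were higher at p under 0.05, Kif7 and Kif3a, and 0 lower, where 9.44% of all genes were higher and 5.42% lower. By DESeq2 1 member was higher and 0 were lower (5.75% and 3.05% of all genes), and limma-voom with quality weights 0 higher and 2 lower (7.63% and 5.87%). The deleted libraries all exceeded the wild-type ones in 8 members and all lay under them in 13 (22.4% and 23.7% of all genes). All 8 above were transport or ciliary members, and 9 of the 13 below were mitotic. Deleted 6 was the lowest library by over 4-fold in 12 members, where 8.09% of all genes were, and the highest by over 4-fold in 1, Kif5a, where 1.86% were. Without deleted 6 edgeR called 0 members higher and 1 lower (7.89% and 5.07% of all genes).

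**Figure D3:**
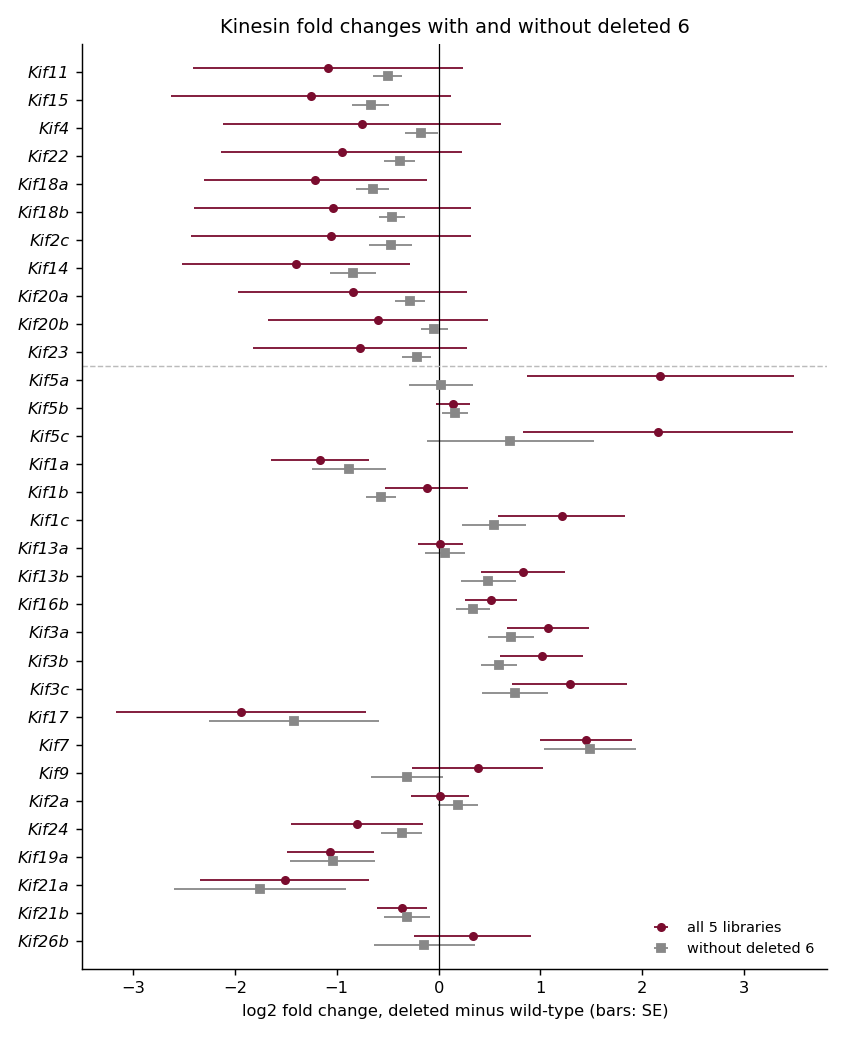
Log2 fold change, deleted minus wild-type, of the 32 tested kinesins with all 5 libraries (circles) and without deleted 6 (squares), with bars for 1 SE and mitotic members above the dashed line. With all libraries the mitotic members lie between -1.40 and -0.60 with wide bars, and without deleted 6 between -0.84 and -0.04 with narrow ones.

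Per length of exon, which allows levels of different genes to be set beside each other, the make-up of the family's transcripts differed between deleted 6 and the rest. Mitotic kinesins made up 66.7%, 62.5% and 4.10% of the family's summed CPM per kb in deleted 2, 4 and 6, against 72.1% and 72.9% in wild-type 1 and 3. Their sum was 146, 131 and 4.59 CPM per kb in deleted 2, 4 and 6, against 165 and 195 CPM per kb in wild-type 1 and 3. The other members summed to 73.1, 78.5 and 107 CPM per kb in deleted 2, 4 and 6, against 64.0 and 72.5 CPM per kb in wild-type 1 and 3. The share of kinesin-2 with Kif17 was 7.19%, 10.01% and 31.9% in deleted 2, 4 and 6, against 5.34% and 4.84% in wild-type 1 and 3. Kif20a was the most abundant kinesin per length in deleted 2 and both wild-type libraries, at 29.6 CPM per kb in deleted 2 against 31.0 and 35.5 in wild-type 1 and 3. Kif5b led in deleted 4 and 6, at 29.7 and 29.1 CPM per kb, and in deleted 6 it was followed by Kif3a, at 17.4, and Kif3b, at 15.0. In deleted 2, Kif20a and Kif5b, at 29.6 and 29.4 CPM per kb, were level within a small margin.

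**Figure D4:**
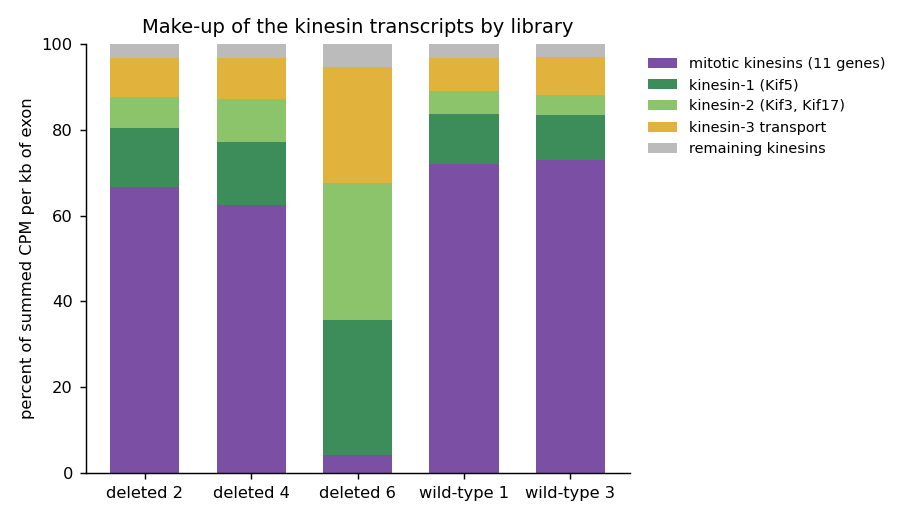
Share of the family's summed CPM per kb of exon taken by mitotic kinesins and by the transport classes in each library, deleted libraries left of wild-type. Mitotic members take 62.5% or more in every library except deleted 6, where they take 4.10%.

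Other microtubule genes were counted beside the motors. In the list of dynein, the motor that runs towards the minus end, and its cofactors, 12 of 22 tested genes had every deleted library above wild-type and 1 below (22.4% and 23.7% of all genes). The 4 with the smallest p were Dctn4, a dynactin subunit, Ndel1 and Bicd2, dynein regulators and adaptors, and Dync1li2, a light intermediate chain. Their log2 fold changes were 0.70 ± 0.22, 0.77 ± 0.24, 0.84 ± 0.27 and 0.87 ± 0.29 with all libraries (edgeR adjusted p = 0.281 to 0.289). Without deleted 6 edgeR called all 4 and the heavy chain Dync1h1 higher, at 0.55 ± 0.13, 0.59 ± 0.14, 0.62 ± 0.14, 0.61 ± 0.12 and 0.72 ± 0.17 (adjusted p from 0.0258 to 0.0436), where it called 7.89% of all genes higher. Dync1h1 stood at 348, 352 and 568 CPM in deleted 2, 4 and 6, against 183 and 247 CPM in wild-type 1 and 3.

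Of 15 tested cargo adaptors 12 had every deleted library above wild-type and 1 below (22.4% and 23.7% of all genes). Arl8a, the small GTPase that couples lysosomes to kinesin-1 and Kif1b, stood at 110, 149 and 234 CPM in deleted 2, 4 and 6, against 83.5 and 60.1 CPM in wild-type 1 and 3. Its log2 fold change was 1.19 ± 0.39 with all libraries and 0.86 ± 0.22 without deleted 6 (edgeR adjusted p = 0.286 and 0.0472). Mapk8ip1, a scaffold that binds kinesin light chains, had 49, 41 and 194 counts in deleted 2, 4 and 6, against 0 and 3 counts in wild-type 1 and 3, and was called without deleted 6 (adjusted p = 0.0190). Mapk8ip3, a scaffold of the same kind, and Rab11fip5, an adaptor of recycling endosomes, had log2 fold changes of 0.64 ± 0.22 and 1.72 ± 0.66 with all libraries, and 0.51 ± 0.15 and 0.94 ± 0.24 without deleted 6 (edgeR adjusted p = 0.0773 and 0.0520 in that fit). In the list of cargo adaptors edgeR called 0 with all libraries, and before adjustment 5 were higher and 0 lower at p under 0.05 (9.44% and 5.42% of all genes). DESeq2 gave 1 higher call and limma-voom 3 (5.75% and 7.63%), and edgeR without deleted 6 gave 2 (7.89%). In the dynein list edgeR and DESeq2 called 0, limma-voom 5 higher (7.63% of all genes), and 5 were higher and 0 lower at p under 0.05 before adjustment (9.44% and 5.42%).

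Tubulins are the building blocks of the track. Tubb2a, a beta chain, stood at 39.2, 51.8 and 109 CPM in deleted 2, 4 and 6, against 23.2 and 26.6 CPM in wild-type 1 and 3. Tubb5, the beta chain of dividing cells, stood at 394, 352 and 119 CPM in deleted 2, 4 and 6, against 473 and 408 CPM in wild-type 1 and 3. Of 17 tested tubulins 5 lay above wild-type and 7 below in every deleted library, where 22.4% and 23.7% of all genes did. The 4 with the smallest p, Tubb4a, Tuba1a, Tubb2a and Tubb2b, had positive log2 fold changes of 2.16 ± 0.61, 0.60 ± 0.19, 1.43 ± 0.50 and 1.99 ± 0.72 with all libraries, and 1.72 ± 0.48, 0.52 ± 0.14, 0.88 ± 0.19 and 1.46 ± 0.54 without deleted 6. Of these, Tubb4a and Tubb2b were low: Tubb4a had 89, 52 and 118 counts in deleted 2, 4 and 6, against 14 and 24 in wild-type 1 and 3. Tubb2b had 86, 51 and 131 counts, against 26 and 16. With all libraries edgeR called 0 tubulins, DESeq2 1 higher (5.75% of all genes), and limma-voom 2 higher and 1 lower (7.63% and 5.87%). Without deleted 6 edgeR called 1 higher, Tubb2a (7.89%). Tubulin genes are near-identical to each other, so their counts are uncertain. The family's own near-copies were Kifc1 and Kifc5b, minus-end motors outside the rule. Reads that align to both are among the rows that name no gene, so the counts of both are uncertain. Kifc1 stood at 9.93, 9.83 and 0.520 CPM in deleted 2, 4 and 6, against 11.9 and 12.7 CPM in wild-type 1 and 3.

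**Figure D5:**
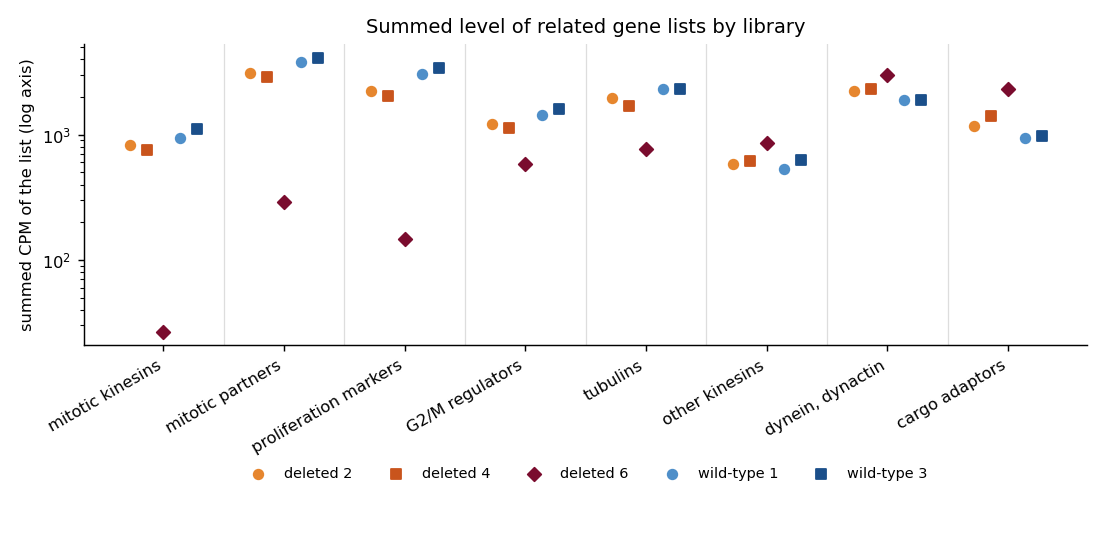
Summed level in CPM, on a log axis, of the mitotic kinesins, the other kinesins and 6 related gene lists in each library, with deleted 2, 4 and 6 left of wild-type 1 and 3. Deleted 6 lies lowest in the 5 lists on the left, at 26.7 CPM for the mitotic kinesins, and highest in the other kinesins, dynein and cargo adaptors.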

How the data were processed

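SMART-Seq v4 cDNA and Nextera XT libraries, neither of which marks strand, were read as 50 base single ends, per the labels' protocols and the series' design text. The submitters' processing notes name bcl2fastq 1.8.4, STAR, DESeq2 1.12.4 and the mm10 build. Annotation and counting options: not given in the sources used here. Read counts deposited by the authors covered 46603 genes per library, plus 5 rows that name no gene (23.7% to 30.1% of each library's total), which stayed out of library sizes and tests. Their deposited table of normalized signal is the counts over a size factor of each library, and supplied the symbols and the members. Reads with several alignments (13.0% to 15.1%) are among the rows that name no gene, which lowers near-identical copies.

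Counts were filtered with filterByExpr (16120 genes left), scaled with TMM and tested on genotype with edgeR 4.0.16 (quasi-likelihood, 3 residual degrees of freedom) in R 4.3.3. Adjustment was by Benjamini and Hochberg over all genes, with calls under 0.05. DESeq2 1.42.0 and limma 3.58.1 were alternatives. Standard errors are the fold change divided by the root of edgeR's F. With 3 libraries against 2, exact permutation of labels is unable to reach 0.05 and was not used. The fits were tested on simulated data. All pairs of libraries differed beyond counting noise, by a chi-square of at least 44.7 per gene. Exon lengths, overlaps and gene coordinates are from GENCODE M21 (GRCm38, the same build as mm10). Members, role lists and tests were chosen with earlier results of these data known. Of each related list the 4 tested genes with the smallest p are named, and any other gene named outside the family, and the motifs, were chosen after values were seen.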

Additional observations from a re-analysis of the deposited data

How the results depend on the processing

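Over all genes edgeR called 0 higher and 0 lower with DESeq2 size factors or a filter of 10 CPM in 2 libraries, which left 22 of the 32 members. DESeq2 called 927 higher and 492 lower, limma-voom with quality weights 1230 and 947, no filter on low counts 163 and 115, and lane 4 alone 211 and 131. Lane 4 holds 1 wild-type library, taken to vary as the deleted ones do. With single libraries left out the calls ran from 0 to 1245 higher and from 0 to 800 lower, and the calls were made only when deleted 6 was the library left out.

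Of the kinesins DESeq2 called 1 higher (5.75% of all genes) and limma-voom 2 lower (5.87%), and the other settings with all libraries, and lane 4, called 0. With single libraries left out, 0 were called higher and 0 to 1 lower. The 1 was called without deleted 6, where 7.89% of all genes were called higher and 5.07% lower. Settings added after the data were seen, both without deleted 6, gave 2 higher and 6 lower with DESeq2 (10.9% and 7.66% of all genes). With limma-voom they gave 0 and 1 (7.3% and 4.98% of all genes). Levels scaled to total counts put the median gene of deleted 6, against wild-type, at -0.55 on the log2 scale, against -0.05 with TMM. Then 18 members were lowest and 10 highest there, against 16 and 11 with TMM, where 37.9% and 36.2% of all tested genes were. The mitotic 11 were lowest in both.

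Fold changes reversed in 6 members, in 16 of 342 values. With single libraries left out Kif13a ran from -0.23 to 0.31, Kif2a from -0.12 to 0.19, Kif26b from -0.14 to 0.60, Kif9 from -0.31 to 0.72 and Kif1b from -0.57 to 0.077. In lane 4 Kif13a had -0.18, Kif26b -0.36 and Kif9 -0.58. With limma-voom Kif26b had -0.089, Kif9 -0.43 and Kif5a -0.016. No paired analysis was possible because the replicate numbers of the genotypes do not overlap. The cause of these changes was not tested.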
